A study of Xenopus laevis with 8 samples.

Results

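The genes described here encode the core machinery of the cell cycle: cyclins, cyclin-dependent kinases (CDKs), Cdc25 phosphatases, replication licensing factors, mitotic kinases, checkpoint proteins and inhibitors. They were taken by symbol from the array's annotation. A symbol was kept, after its .L or .S ending was removed, if it began with ccna, ccnb, ccnd, ccne, cdc25, cdkn1, aurk or bub, or with mcm or orc and a number. The symbols cdk1, cdk2, cdk4, cdk6, cdknx, cdc6, cdc20, plk1, pcna, mki67 and btg2 were added. The rule found 71 symbols among the 11303 named genes of the array, under 48 gene names. The duplicated genome of this frog holds many genes as .L and .S homeologs, which were kept apart. A symbol with several probe sets was represented by its brightest, judged on the mean of 8 arrays. No probe set carried the symbol cdknx, the main CDK inhibitor of the frog embryo.

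The tissue was the anterior endoderm of Xenopus laevis embryos, cut out at NF stage 15, an early neurula of the Nieuwkoop and Faber series. Every embryo, controls included, carried injected mRNA for Ngn3-GR, the proneural factor Neurogenin 3 joined to a glucocorticoid receptor domain that dexamethasone switches on. The mRNA was placed in dorsal vegetal blastomeres at the 8-cell stage, so only part of each embryo received it. The DEX group (4 arrays) was treated with 10 µM dexamethasone for 4 hours from NF stage 12, and the no_DEX group (4 arrays) was left untreated. The labels give no genotype, strain or clutch, and no array of dexamethasone-treated embryos lacking Ngn3-GR was analysed here. No probe set carried the symbol neurog3, which leaves the injected gene without a check. Arrays are called biological replicates 1 to 4 in each group, and arrays with the same number are treated below as a pair.

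A dividing cell passes through G1, in which D cyclins with Cdk4 and Cdk6 start the cycle, and S phase, which cyclin E with Cdk2 opens. Origins of replication are marked by the origin recognition complex (Orc), licensed by Cdc6 and loaded with the Mcm2 to Mcm7 helicase. Entry into mitosis needs Cdk1 with A and B cyclins, and Cdc25 phosphatases remove the phosphates that hold these kinases inactive. Proneural factors such as the neurogenins are known for coupling differentiation to exit from the cycle, in which CDK inhibitors and antiproliferative proteins such as Btg2 take part.

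Values are log2 signals as deposited, changes are log2 of DEX minus no_DEX, and group levels are mean ± SD over 4 arrays. Array medians lay between 6.02 and 6.12. Control probe sets for tags absent from the sample reached at most 4.40, which is used as the limit of array background. Of the 71 genes, 67 had a mean above it and 4 did not: cdkn1a.L, cdkn1b.S and the probe sets annotated as ccna1 and ccnd2 without a homeolog ending. A gene was called at an adjusted p under 0.05 over all 32539 probe sets, in a fit without pairs and in a fit with the replicate number as a block. Signals of different probe sets do not give relative amounts of RNA, and homeologous transcripts may bind the same probes. Of the 89 probe sets of the members, 16 have names that mark probes shared between transcripts. Those counted for mcm6.2.S, mcm3.L, ccne1.L, ccne2.L, cdk1.L, plk1.S and ccnb1.2.L are among them. Over all probe sets 2 rose and 0 fell without the block (0.00615% and 0%), and 107 rose and 73 fell with it (0.329% and 0.224%). In dissected tissue, fewer cells of a type and less RNA per cell cannot be told apart.

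With dexamethasone a single cell cycle gene rose, cdc25b.L, and it passed only in the fit with the block. None of the 71 passed without the block, where 0.0177% of named genes were called. In that fit 5 of the 71 had an unadjusted p under 0.05, beside 542 of 11303 named genes (4.8%). With the block 1 rose, against 0.434% of named genes, 0 fell, against 0.301%, and 70 did not pass. Over all named genes 49 of 11303 rose with the block, and 1 call among 71 is too few to tell from that share. An unadjusted p under 0.05 with the block was found for 15 members, or 21.1%, beside 14% of named genes; 5 of these were higher and 10 lower with dexamethasone.

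Most members stood near no difference. The median change over the 71 genes was −0.02, against 0.01 over all named genes, and the median size of the change was 0.10, against 0.085. For 62 of the 71 genes the 95% interval of the change with the block lay between −0.5 and 0.5, limits set after the data were seen. Those whose intervals reached further were cdc25b.L, btg2.S, ccna1.L, ccna1.S, ccndx.L, ccne2.S, mcm4.S, orc4.L and ccnb1.S. The share of named genes inside these limits was not counted. Without the block some intervals were much wider, such as −0.69 to 0.80 for cdc25a.S and −1.05 to 0.59 for mcm5.S. Intervals given below are from the fit with the block, so their width depends on the pairing. Pair by pair, 10 genes were higher in 4 of 4 pairs (14.1%, against 12.5% of named genes) and 13 were lower in 4 of 4 (18.3%, against 10.8%). The groups did not overlap for 2 of the 71 genes with DEX higher, cdc25b.L and btg2.S, beside 208 of 11303 named genes (1.84%). They did not overlap for 2 of the 71 with DEX lower, ccna1.S and mcm6.2.S, beside 133 of 11303 (1.18%).

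**Figure D1:**
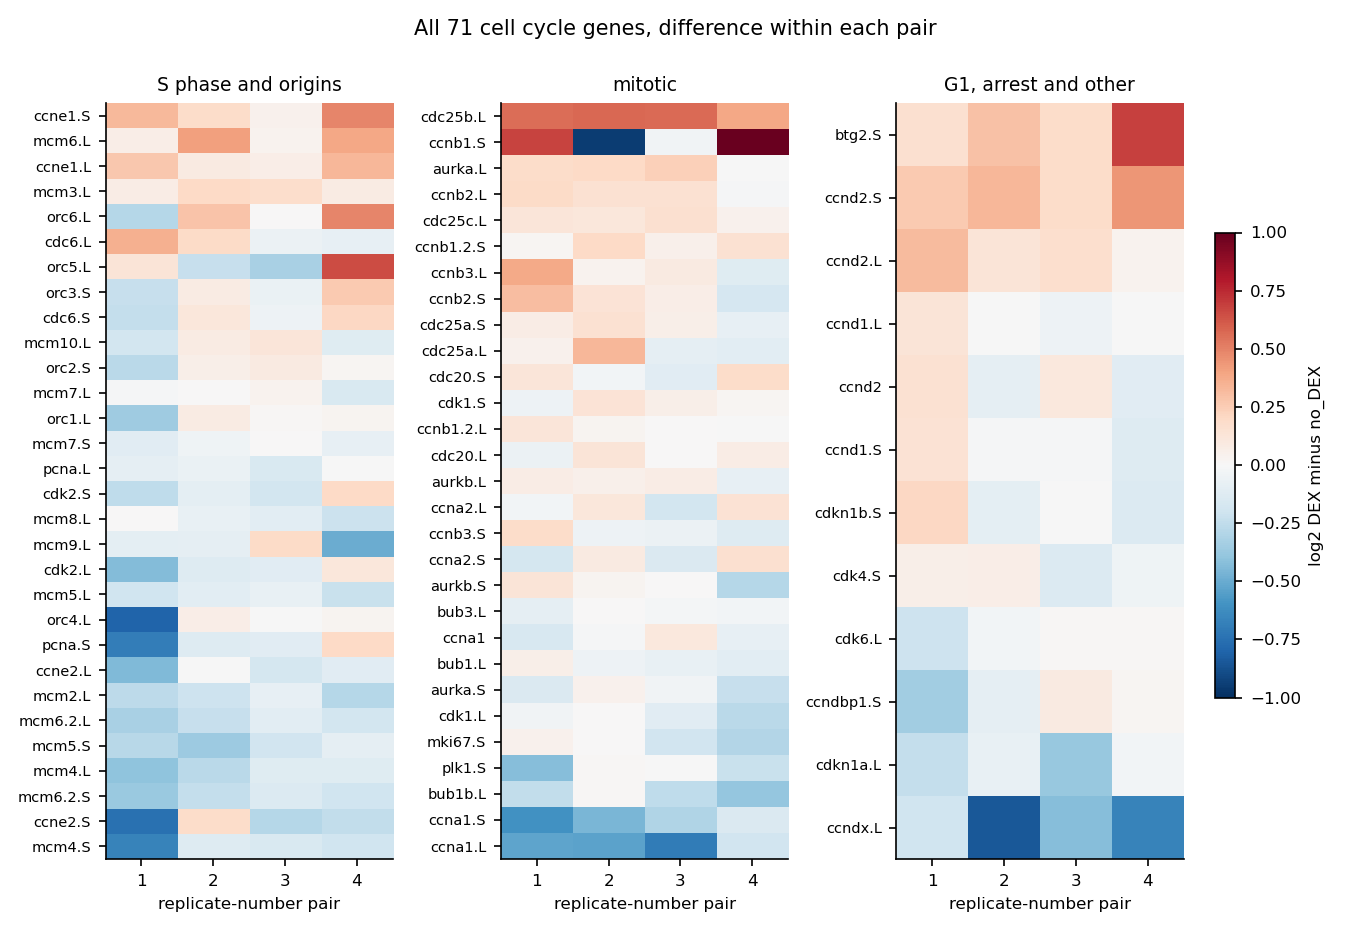
Difference between the arrays of each replicate-number pair (log2 DEX minus no_DEX, colour scale from −1 to 1) for all 71 cell cycle genes, grouped by role and sorted by the mean change. Higher (red) in all 4 pairs were 10 genes, among them cdc25b.L, btg2.S and both homeologs of ccne1 and ccnd2. Lower (blue) in all 4 were 13, among them both homeologs of ccna1 and 7 of the 11 Mcm2 to Mcm7 genes. Differences close to 0, such as −0.0003 for ccne2.L in pair 2, show almost no colour.

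Cdc25 phosphatases were represented by cdc25a.L, cdc25a.S, cdc25b.L and cdc25c.L. Cdc25B acts early in mitotic entry, Cdc25C at its completion, and Cdc25A at both S phase and mitosis. Replicates 1 to 4 of the DEX group gave cdc25b.L signals of 7.16, 7.33, 7.06 and 6.92, against 6.60, 6.75, 6.49 and 6.53 in no_DEX. Every DEX array lay above every no_DEX array, and the 4 pairs differed by 0.56, 0.58, 0.57 and 0.39. Group levels were 7.12 ± 0.17 and 6.60 ± 0.12, a 1.44-fold difference (log2 0.52, SE 0.08 with the block; adjusted p = 0.0381 with the block and 0.50 without).

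The call for cdc25b.L was lost when any 1 pair was left out. In the fit with the block the adjusted p became 0.112, 0.214, 0.159 and 0.0588 when pairs 1, 2, 3 and 4 were left out in turn, while the change stayed between 0.50 and 0.57. Another cdc25b.L probe set also had groups that did not overlap, without passing, at 5.96, 6.34, 5.94 and 6.02 with dexamethasone and 5.81, 5.66, 5.62 and 5.75 without (log2 0.35, adjusted p = 0.192 with the block). The remaining one, whose name marks probes shared between transcripts, measured 4.96, 4.99, 5.13 and 4.94 in DEX and 4.98, 4.87, 5.11 and 5.14 in no_DEX, so its groups overlapped (log2 −0.02). Averaging the 3 probe sets gave a change of 0.29 that did not pass (adjusted p = 0.199 with the block).

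The other Cdc25 genes showed smaller differences. The cdc25c.L signal was 10.32, 10.06, 10.19 and 10.25 in DEX against 10.20, 9.95, 10.03 and 10.21 in no_DEX, higher in 4 of 4 pairs with overlapping groups (log2 0.11, adjusted p = 0.618 with the block, 95% interval −0.06 to 0.28). For cdc25a.L the arrays gave 10.02, 9.78, 9.97 and 10.12 against 9.98, 9.45, 10.06 and 10.22, a change of 0.04 (interval −0.18 to 0.26). For cdc25a.S they gave 7.80, 7.62, 7.94 and 8.76 against 7.72, 7.47, 7.89 and 8.84, a change of 0.05 (interval −0.13 to 0.23). Replicate number 4 was the highest for cdc25a.S in both groups, and the groups overlapped.

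**Figure D2:**
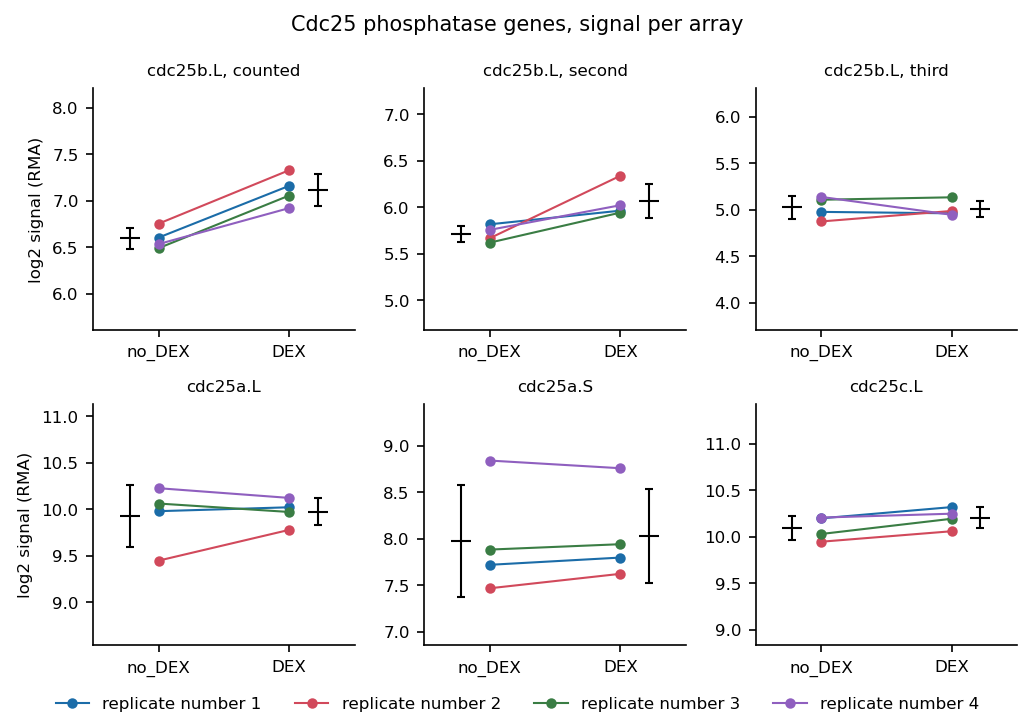
Log2 signal (RMA) of the 3 cdc25b.L probe sets and of cdc25a.L, cdc25a.S and cdc25c.L in each array, with lines joining arrays of the same replicate number and black bars giving mean ± SD over 4 arrays. The counted cdc25b.L probe set runs from 6.49 to 6.75 in no_DEX and from 6.92 to 7.33 in DEX; the second cdc25b.L probe set also separates the groups, and the other panels overlap between them.

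The replicative helicase genes were mostly lower with dexamethasone, by small amounts that did not pass. Of the 11 probe sets for Mcm2 to Mcm7, 7 were lower in 4 of 4 pairs (63.6%, against 10.8% of named genes). Another 2 were higher in 4 of 4 (18.2%, against 12.5%), and 2 were mixed. This grouping was not among the planned roles and was chosen with the data known, so the contrast with named genes is no test. Of all 30 S phase genes, the planned role, 9 were lower (30%) and 4 higher (13.3%) in 4 of 4 pairs. The 7 helicase genes lower in 4 of 4 were mcm2.L, both homeologs of mcm4 and mcm5, and both homeologs of mcm6.2. Homeologs are read from the same RNA, so these are not 7 separate results. The changes of the 7 ran from −0.29 for mcm4.S to −0.15 for mcm5.L, with adjusted p between 0.259 and 0.479 with the block and of 1.00 without it. Over the 11 genes the median change was −0.21, and the medians in pairs 1 to 4 were −0.26, −0.13, −0.08 and −0.15. Across all named genes these pair medians were −0.02, 0.01, 0.02 and 0.02.

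For mcm2.L the DEX arrays read 10.99, 10.63, 11.03 and 10.87 and the no_DEX arrays 11.25, 10.83, 11.12 and 11.16. Each DEX array was below its partner, although the groups overlapped (10.88 ± 0.18 and 11.09 ± 0.18, log2 −0.21, adjusted p = 0.317 with the block). For mcm4.S the arrays read 8.30, 8.38, 8.93 and 8.76 against 8.97, 8.51, 9.08 and 8.96, with pair 1 the widest (log2 −0.29, adjusted p = 0.315 with the block). The mcm4.L arrays read 10.10, 9.86, 10.13 and 10.17 against 10.50, 10.12, 10.25 and 10.29, so both mcm4 homeologs went the same way (log2 −0.23). The mcm5.S signal ran from 6.98 to 8.42 in DEX and from 7.34 to 8.61 in no_DEX, with replicate number 2 lowest in both (log2 −0.23). With 1 array or pair left out its change ran from −0.48 to 0.071. It rose above 0 only with 1 array left out and its partner kept.

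Frog embryos have separate Mcm6 genes for the maternal and the zygotic protein, and the NCBI gene table lists mcm6.L with the synonym mmcm6 and the mcm6.2 homeologs with zmcm6. Their differences had opposite signs. For mcm6.2.S the arrays gave 10.39, 10.31, 10.38 and 10.48 with dexamethasone against 10.77, 10.55, 10.51 and 10.68 without, and the groups did not overlap (log2 −0.24, adjusted p = 0.259 with the block). The name of this mcm6.2.S probe set marks probes shared between transcripts. The mcm6.2.L signal was 10.53, 10.17, 10.29 and 10.43 against 10.85, 10.40, 10.40 and 10.61, lower in 4 of 4 pairs (log2 −0.21, adjusted p = 0.311 with the block). The mcm6.L signal was 7.55, 7.58, 7.72 and 7.35 against 7.49, 7.17, 7.69 and 6.97, higher in 4 of 4 pairs (log2 0.22, adjusted p = 0.390 with the block). None of the 3 passed, and the difference between maternal and zygotic forms was not tested.

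Helicase genes without such a pattern were mcm3.L, at 0.13 and higher in 4 of 4 pairs from a weak probe set with a mean of 4.99, and mcm7. The mcm7.L and mcm7.S changes were −0.03 and −0.06, with intervals of −0.21 to 0.15 and −0.23 to 0.11. Mcm8 and Mcm9, which work in repair of broken forks, and the initiation factor Mcm10 stood at −0.10, −0.13 and −0.02. Each was mixed in direction, as most named genes were.

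**Figure D3:**
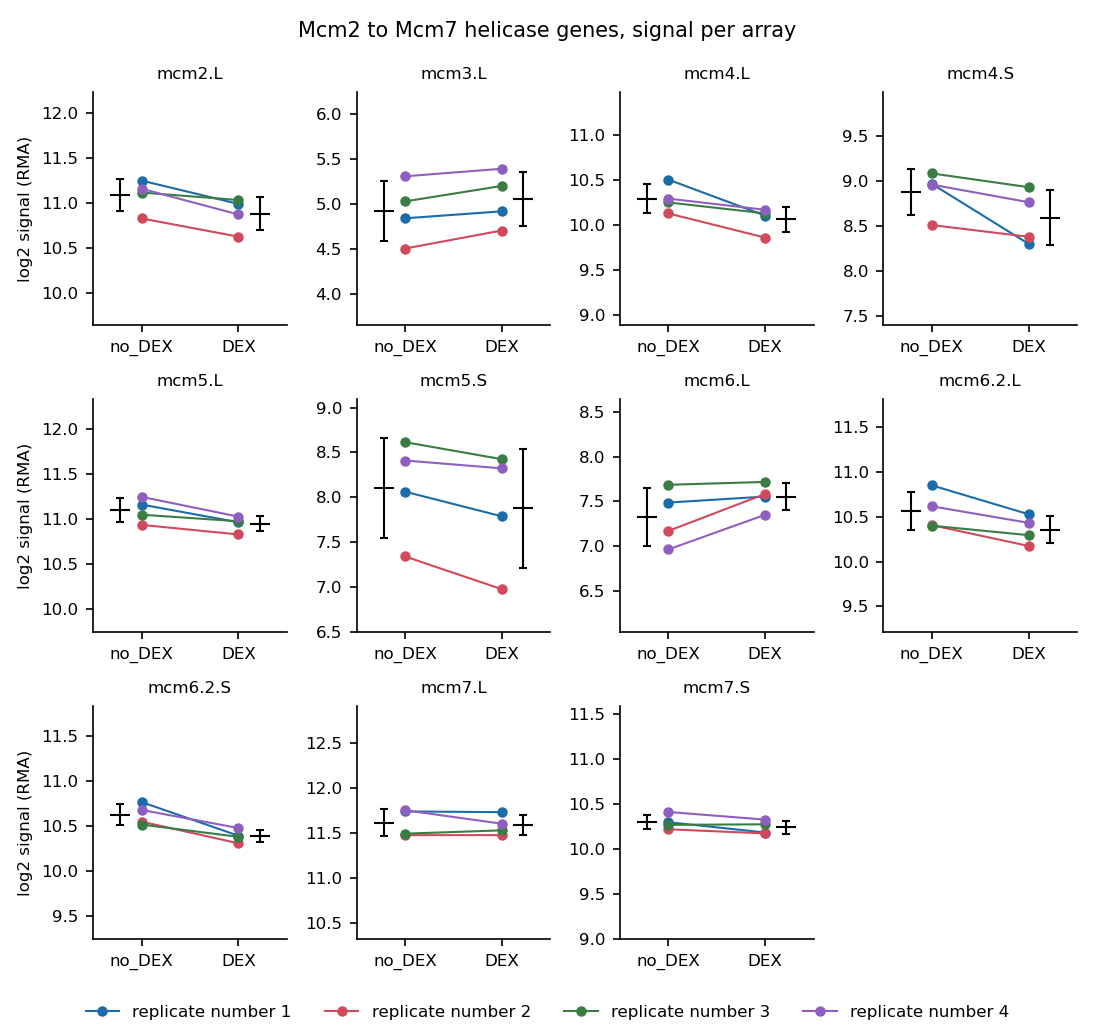
Log2 signal (RMA) of the 11 probe sets for Mcm2 to Mcm7 in each array, with lines joining arrays of the same replicate number and black bars giving mean ± SD over 4 arrays. Lines slope down in all 4 pairs for mcm2.L, mcm4.L, mcm4.S, mcm5.L, mcm5.S, mcm6.2.L and mcm6.2.S, and up in all 4 for mcm3.L and mcm6.L, and replicate number 2 lies lowest or near lowest in most panels.

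The other S phase genes were mostly mixed in direction. Among the 19 left after Mcm2 to Mcm7 are set aside, 2 were higher and 2 lower in 4 of 4 pairs. Each is 10.5%, against 12.5% and 10.8% of named genes. The 2 lower ones were ccne2.L and pcna.L, with near-ties of −0.0003 in pair 2 and −0.0021 in pair 4. The median change of the 19 was −0.06, with 12 below 0 and 7 above. Setting the helicase apart was not among the planned roles, and it takes out 7 of the 9 S phase genes lower in 4 of 4 pairs. The contrast was not tested. PCNA, the sliding clamp of DNA polymerase, gave pcna.L signals of 11.98, 11.67, 11.91 and 11.93 with dexamethasone against 12.07, 11.74, 12.06 and 11.93 without (log2 −0.08, interval −0.25 to 0.10). The pcna.S signals were 10.66, 10.25, 10.79 and 10.80 against 11.35, 10.37, 10.90 and 10.59, and pair 1 alone differed by −0.69 while pair 4 differed by 0.20 (log2 −0.18). The licensing factor gene cdc6 stood at 0.10 for cdc6.L and 0.01 for cdc6.S. The 6 orc genes, each from 1 homeolog, ran from −0.18 for orc4.L to 0.12 for orc6.L. All were mixed in direction, as were 8670 of the 11303 named genes.

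None of the 4 cyclin E genes passed, and the difference between the paralogs ccne1 and ccne2 was not tested. The ccne1.S arrays read 9.75, 9.92, 9.33 and 9.75 with dexamethasone against 9.42, 9.74, 9.29 and 9.27 without, and ccne1.L read 8.60, 8.37, 8.58 and 8.44 against 8.33, 8.29, 8.52 and 8.10. Both were higher in 4 of 4 pairs with overlapping groups (log2 0.26 and 0.19, adjusted p = 0.296 and 0.411 with the block). The ccne2.S arrays read 7.85, 7.46, 8.41 and 8.22 against 8.60, 7.28, 8.70 and 8.47, lower in 3 pairs (log2 −0.27, adjusted p = 0.476 with the block). The ccne2.L change was −0.18. Replicate number 2 stood far below the others for both ccne2 homeologs in both groups. The partner kinase Cdk2 gave 9.86, 9.81, 9.81 and 9.83 against 10.29, 9.94, 9.92 and 9.72 for cdk2.L (log2 −0.14). For cdk2.S the arrays gave 9.66, 9.73, 10.01 and 10.07 against 9.92, 9.82, 10.19 and 9.87 (log2 −0.08). Both were lower in 3 pairs and higher in pair 4.

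Among mitotic genes the cyclin A1 homeologs stood lowest. Cyclin A1 is the A cyclin of the egg and early embryo, and cyclin A2 that of later somatic cells. For ccna1.L the arrays gave 7.03, 7.28, 6.48 and 6.80 with dexamethasone against 7.56, 7.82, 7.18 and 6.99 without, lower in every pair with overlapping groups (log2 −0.49, SE 0.10 and adjusted p = 0.0903 with the block). The ccna1.S signal was 7.95, 8.10, 7.82 and 8.0 against 8.55, 8.55, 8.12 and 8.15, and every DEX array lay below every no_DEX array (log2 −0.38, adjusted p = 0.146 with the block). Neither passed in either fit. Cyclin A2 stood near 0, with ccna2.L at 10.43, 10.11, 10.33 and 10.24 against 10.46, 10.00, 10.51 and 10.10 (log2 0.01, interval −0.19 to 0.21). The ccna2.S arrays read 9.67, 9.50, 9.36 and 9.55 against 9.84, 9.41, 9.51 and 9.39 (log2 −0.02). The probe set annotated as ccna1 without a homeolog ending lay under the background limit.

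**Figure D4:**
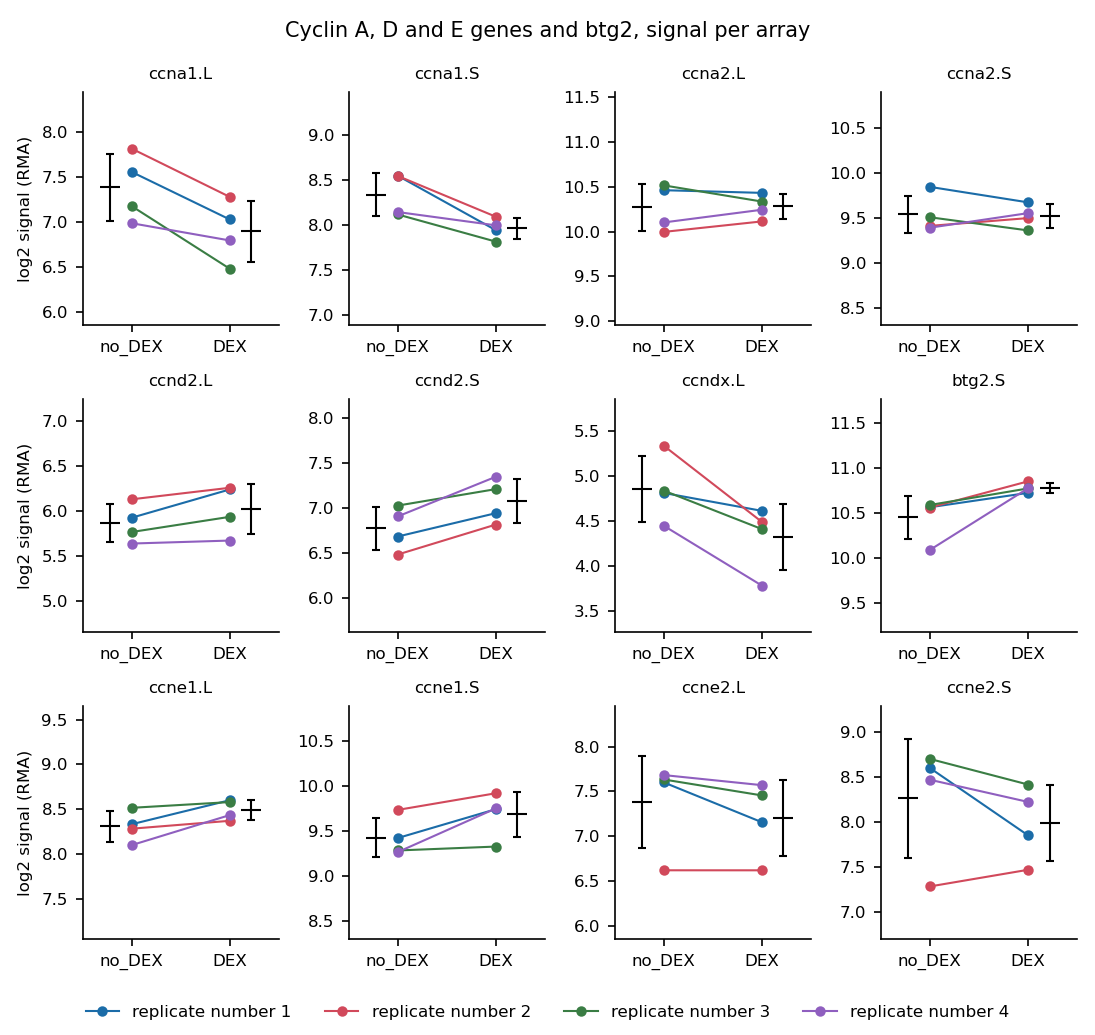
Log2 signal (RMA) of cyclin A, D and E genes and of btg2.S in each array, with lines joining arrays of the same replicate number and black bars giving mean ± SD over 4 arrays. Lines slope down in all 4 pairs for ccna1.L, ccna1.S and ccndx.L and up in all 4 for ccnd2.L, ccnd2.S, ccne1.L, ccne1.S and btg2.S, while ccna2.L and ccna2.S are mixed; none of these passed.

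B cyclins and their kinase Cdk1 differed little in their counted probe sets. Of 7 cyclin B genes 1 was higher in 4 of 4 pairs (14.3%, against 12.5% of named genes), ccnb1.2.S at 0.10, and the median change was 0.10. A second, weaker ccnb2.L probe set, with a mean of 5.72, was also higher in 4 of 4 pairs without passing. Its change was 0.40 (adjusted p = 0.197 in limma with the block), against 0.12 for the counted ccnb2.L probe set. The ccnb1.2.L probe set, with the highest signal among mitotic members, read 11.43, 11.22, 11.38 and 11.37 against 11.30, 11.19, 11.37 and 11.37 (log2 0.04, interval −0.13 to 0.21). A weaker gene, ccnb1.S, read 5.71, 5.26, 5.97 and 6.66 against 5.04, 6.21, 6.01 and 5.67, so its pairs ran from −0.95 to 0.99 and showed no direction. For cdk1.S the arrays gave 10.21, 9.86, 10.09 and 10.17 against 10.26, 9.72, 10.03 and 10.15 (log2 0.04, interval −0.14 to 0.22). For cdk1.L they gave 9.94, 9.85, 9.98 and 9.89 against 9.98, 9.85, 10.09 and 10.16 (log2 −0.11).

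Aurora A, which builds the spindle, had homeologs of opposite sign, aurka.L at 0.16 and aurka.S at −0.09. The aurka.L arrays read 10.36, 10.29, 10.20 and 10.20 against 10.18, 10.09, 9.96 and 10.20. The aurka.S arrays read 9.06, 9.27, 9.03 and 8.97 against 9.20, 9.23, 9.07 and 9.20, and neither passed. Aurora B, the kinase of the chromosomal passenger complex, stood at 0.03 for aurkb.L (10.52, 10.25, 10.25 and 10.39 against 10.44, 10.20, 10.17 and 10.47). The aurkb.S change was −0.03, from 8.75, 8.35, 9.06 and 9.15 against 8.62, 8.32, 9.06 and 9.43.

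Polo-like kinase 1, which drives several steps of mitosis, gave plk1.S signals of 10.77, 10.68, 10.91 and 10.75 against 11.20, 10.67, 10.91 and 10.97 (log2 −0.16, adjusted p = 0.570 with the block). Spindle checkpoint genes stood at −0.22 for bub1b.L, lower in 3 pairs, −0.04 for bub1.L and −0.03 for bub3.L. The anaphase activator cdc20 stood at 0.04 for both homeologs. The proliferation marker mki67.S stood at −0.11, mixed between pairs, in its counted probe set, whose name marks shared probes. Its other probe sets stood at −0.18 (lower in 3 pairs), −0.16 (lower in 4 of 4) and 0.05 (lower in 1), and none passed. Over the 8 Aurora, Polo and Bub genes none had the same direction in 4 of 4 pairs, and neither did 8670 of the 11303 named genes.

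Neither ccnd1 nor ccnd2, the D cyclins well above background, passed in either fit. The ccnd1 homeologs differed by at most 0.02 between groups, with ccnd1.S at 11.85, 11.82, 11.71 and 11.68 against 11.71, 11.84, 11.72 and 11.81 (log2 −0.003, interval −0.19 to 0.18). The ccnd1.L arrays read 10.92, 10.68, 10.71 and 10.82 against 10.79, 10.69, 10.76 and 10.83 (log2 0.02). The ccnd2.S arrays read 6.94, 6.81, 7.21 and 7.35 against 6.68, 6.48, 7.03 and 6.90, higher in 4 of 4 pairs (log2 0.30, adjusted p = 0.163 with the block). The ccnd2.L signal was 6.24, 6.26, 5.93 and 5.67 against 5.92, 6.13, 5.76 and 5.64, also higher in 4 of 4 pairs (log2 0.16, adjusted p = 0.474 with the block).

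The ccndx.L gene encodes a D-type cyclin known in the frog from motor neuron progenitors. It measured 4.61, 4.49, 4.41 and 3.78 with dexamethasone and 4.81, 5.34, 4.84 and 4.44 without, lower in 4 of 4 pairs. Its DEX mean of 4.32 lay under the background limit and its no_DEX mean of 4.86 just above it, so the size of the difference is not well measured (fitted log2 −0.54, adjusted p = 0.0980 with the block and 1.00 without). The kinase partners stood at −0.01 for cdk4.S and −0.05 for cdk6.L. The cyclin D binding protein gene ccndbp1.S, which the symbol rule takes in without being a cyclin, read 8.14, 8.06, 8.17 and 8.05 against 8.49, 8.14, 8.08 and 8.03 (log2 −0.08).

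Of the arrest genes, only btg2.S, an antiproliferative gene of the BTG and TOB family, had a mean signal above background. It read 10.72, 10.85, 10.77 and 10.77 with dexamethasone against 10.56, 10.56, 10.59 and 10.09 without, and every DEX array lay above every no_DEX array. The change was 0.33 (adjusted p = 0.236 with the block), and pair 4, whose no_DEX array was the low one, contributed 0.69 beside 0.16, 0.29 and 0.18 in pairs 1 to 3. The CDK inhibitor gene cdkn1a.L, encoding p21, read 4.07, 4.60, 3.69 and 3.77 against 4.31, 4.67, 4.07 and 3.80 (log2 −0.18). The p27 gene cdkn1b.S read 4.18, 3.88, 4.23 and 3.84 against 3.97, 3.97, 4.23 and 3.98 (log2 −0.01). At means of 4.12 and 4.03 these values lie within the range of the background controls and give no measure of either inhibitor.

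Within pairs, the S phase genes had the lowest median of the 3 larger roles in 3 of 4 pairs. The medians of the 30 S phase genes were −0.25, −0.02, −0.07 and −0.04 in pairs 1 to 4, and leaving out pair 1 took their mean from −0.09 to −0.04. The medians of the 29 mitotic genes ran from −0.08 in pair 4 to 0.04 in pair 1, and those of the 8 G1 genes from −0.02 in pair 4 to 0.13 in pair 1. All 30 S phase genes together lay below G1 in 4 of 4 pairs, by little in pairs 2 and 4, and below the mitotic genes in pairs 1 to 3. The 19 S phase genes left without Mcm2 to Mcm7 had medians of −0.24, 0.06, −0.06 and 0.03 in pairs 1 to 4. In pairs 2 and 4 these lay above the G1 medians of −0.01 and −0.02. Of the 3 arrest genes only btg2.S was above background, with differences of 0.16, 0.29, 0.18 and 0.69 in pairs 1 to 4. A gene higher in 4 of 4 pairs always lies above medians below 0, so btg2.S gives no comparison of arrest with S phase. Differences between roles were not tested.

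**Figure D5:**
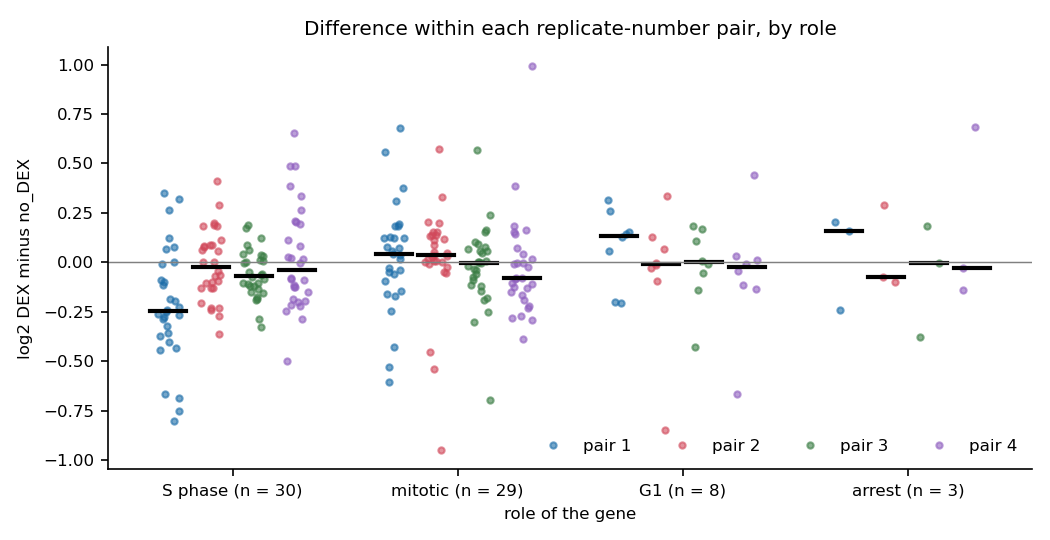
Difference within each replicate-number pair (log2 DEX minus no_DEX) for every S phase, mitotic, G1 and arrest gene, with a black line at the median of each role in each pair. The S phase medians run from −0.25 in pair 1 to −0.02 in pair 2, and the medians of the other roles lie on both sides of 0; of the 3 arrest genes 2 are at background.

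Homeologs are separate genes read from the same RNA on the same array, so their agreement does not repeat a result. Their probes may also share targets. Both homeologs were measured for 21 genes, and 15 of these (71.4%) had changes of the same sign, beside 62.7% of the 2009 homeolog pairs on the whole array. The median gap between homeologs was 0.06 among the members and 0.09 over the array. The widest gap, 0.25, was that of aurka.

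Members also varied with replicate number. Replicate number 2 had the lowest mean for 40 of the 71 genes (56.3%, beside 28.0% of named genes). That was so for 22 of 30 S phase genes, for 10 of 11 Mcm2 to Mcm7 genes and for 14 of 29 mitotic genes. The mcm5.S means in replicate numbers 1 to 4 were 7.93, 7.16, 8.52 and 8.37, those of ccne2.S 8.22, 7.37, 8.56 and 8.34, and those of mki67.S 9.34, 9.59, 10.23 and 10.35. In an F test over the replicate numbers, added after the data were seen, 16 of the 71 members passed (22.5%), beside 21.7% of named genes.

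Beyond the members, 143 other cell cycle genes were measured, among them E2F factors, kinetochore, condensin and replication genes. None passed in limma without or with the block; 6 and 18 of them had an unadjusted p under 0.05, or 12.6% with the block beside 14% of named genes. Of these 143, 18 were higher and 18 lower in 4 of 4 pairs (12.6% each, against 12.5% and 10.8% of named genes). The median change of the 143 was −0.03. The widest differences belonged to mycn.S and tob1.S. The growth-promoting gene mycn.S read 8.50, 7.96, 7.98 and 7.77 against 9.16, 9.21, 8.50 and 8.19 (log2 −0.71, adjusted p = 0.0815 with the block), and mycn.L, whose probe set may also detect other transcripts, as that of mycn.S may, stood at −0.67. The antiproliferative gene tob1.S, of the same family as btg2, read 8.70, 9.30, 8.25 and 9.01 against 8.02, 8.25, 7.97 and 8.34, higher in 4 of 4 pairs (log2 0.67, adjusted p = 0.0679 with the block).

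Markers of the endoderm and of neighbouring tissues were measured on the same arrays. Among them 1 passed, the notochord gene shh.L, which fell with the block, beside 0.301% of named genes. Of 16 endoderm markers 15 were above background, hhex.L being the exception, and their summed linear signal ran from 15842 to 21701 in DEX and from 11973 to 22792 in no_DEX, with median differences of 0.57, −0.04, 0.07 and −0.09 in pairs 1 to 4. Of 12 neural plate markers, all but six3.S above background, the sum ran from 4785 to 6447 and from 6070 to 8118, and their median differences were 0.01, −0.38, −0.19 and −0.42. Of 12 skeletal muscle markers, with acta1.S and tnnt3.S at background, the sum ran from 2338 to 3640 and from 1784 to 7146, and the median differences were −0.85, −1.52, −0.99 and 0.19. The 7 notochord markers summed to 1671 to 2187 and 1951 to 3105, with median differences of −0.33, −0.60, −0.70 and 0.11. Of these 7, 5 had a mean change below 0 and 2 above, tbxt.L at 0.28 and tbxt.S at 0.31. The 9 epidermal markers had sums of 30180 to 30975 and 29902 to 31811, with median differences of 0.23, −0.02, 0.13 and 0.05. The brightest probe sets weigh most in such sums. Both homeologs of krt12.4, at means of 13.58 and 13.61, made up most of the epidermal sum, and a2m.S, at 13.00, was the brightest endoderm marker. The part of tissue makeup in the Mcm2 to Mcm7 and cdc25b.L differences was not tested.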

How the data were processed

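The authors deposited 1 table of log2 expression values, 1 column per Affymetrix array. These come from RMA, per the submitters' processing notes, a method that corrects background, equalises array distributions and summarises probes; its version is not given in these sources. RMA compresses differences between weak signals. Of 32635 probe sets, 96 controls were left out. The platform annotation gave 1 symbol for 15495 probe sets, several for 279 (not named) and did not list 16765; for 69 of the 71 members the gene identifier was found in the NCBI table of Xenopus_laevis_v10.1.

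The comparison used limma (version 3.58.1, R 4.3.3) with moderated two-sided tests and Benjamini-Hochberg adjustment over 32539 probe sets, fitted without a block and with the replicate number as a block. Arrays with the same number deviated from their group means together (correlations of 0.63, 0.78, 0.77 and 0.69, against at most 0.20 between numbers), so arrays of 1 number were treated as pairs; the pairing comes from these data, not from the labels. No label names separate clutches, so p-values without the block measure the spread between these samples. With the block they measure the spread of the differences within replicate numbers. The number of arrays limits the precision. The fit was tested on simulated data.

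Members, roles and lists were chosen with earlier results of these data known, and no list was tested as a set. Values in every array are given for called members, all cdc25, cdkn1 and btg2 genes, a fixed core of cyclins and kinases, the largest 3 changes and the highest signal of each role. Alternatives were leaving out arrays or pairs, centring array medians, a background filter, a variance trend, averaging probe sets and leaving out shared probes.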

Additional observations from a re-analysis of the deposited data

Results flagged for a closer look

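In 4 of the 70 sets of 4 arrays examined (35 genes in 2 groups), 1 array stood apart by Dixon's criterion, a share near the 1 in 20 that chance gives. All 4 were no_DEX arrays. The btg2.S signal of no_DEX replicate 4 was 10.09, with the next lowest array at 10.56, and this array lies behind the wider pair 4 difference given above. For ccne2.S, no_DEX replicate 2 read 7.28 and the next array 8.47. For aurka.S, no_DEX replicate 3 read 9.07 and the next 9.20, and for cdkn1b.S, within the background range, no_DEX replicate 3 read 4.23 and the next 3.98.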

How the results depend on the processing

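Without the block 0 members were called in either direction under centring of array medians, the background filter, the variance trend, averaged probe sets, exclusion of shared probes or the loss of any 1 array, and 2 probe sets rose and 0 fell overall (0 to 2 rose and 0 to 1 fell with an array left out). With the replicate block 107 probe sets rose and 73 fell and 1 member, cdc25b.L, rose; with a pair left out, 4 to 47 rose, 0 to 73 fell and 0 members passed, from fewer arrays. Alternatives chosen after seeing the data combined the block with other settings. With centred medians 97 rose and 72 fell, with the background filter 89 and 61, and with the trend 142 and 92. The 1 member called was cdc25b.L in each of these and without shared probes, and 0 were called with averaged probe sets. The adjusted p of cdc25b.L with the block ran from 0.0381 to 0.214 over all its alternatives; no other member's call changed. The mean of the arrest medians was 0.014, and 0.33 above background, where only btg2.S is left. The S phase mean ran from −0.12 to −0.044 with a pair left out, the mitotic from −0.015 to 0.026, the G1 from −0.011 to 0.042 and the arrest from −0.034 to 0.043. Averaging probe sets turned ccnb3.S from −0.014 to 0.030, with and without the block. Leaving out 1 array or pair turned the sign of 37 of the 71 members, including mcm5.S, mcm3.L and ccne2.L, which had 1 direction in 4 of 4 pairs; their changes ran from −0.025 to 0.080 for aurkb.L, −0.21 to 0.16 for aurkb.S, −0.10 to 0.021 for bub3.L, −0.082 to 0.019 for ccna1, −0.079 to 0.094 for ccna2.L, −0.077 to 0.085 for ccna2.S, −0.00042 to 0.083 for ccnb1.2.L, −0.10 to 0.54 for ccnb1.S, −0.00019 to 0.17 for ccnb2.S, −0.11 to 0.029 for ccnb3.S, −0.030 to 0.049 for ccnd1.L, −0.052 to 0.040 for ccnd1.S, −0.033 to 0.083 for ccnd2, −0.14 to 0.020 for ccndbp1.S, −0.44 to 0.0098 for ccne2.L, −0.033 to 0.12 for cdc20.L, −0.054 to 0.13 for cdc20.S, −0.12 to 0.14 for cdc25a.L, −0.19 to 0.34 for cdc25a.S, −0.072 to 0.20 for cdc6.L, −0.15 to 0.13 for cdc6.S, −0.066 to 0.11 for cdk1.S, −0.088 to 0.058 for cdk4.S, −0.12 to 0.0058 for cdk6.L, −0.080 to 0.056 for cdkn1b.S, −0.095 to 0.038 for mcm10.L, −0.0049 to 0.26 for mcm3.L, −0.48 to 0.071 for mcm5.S, −0.079 to 0.016 for mcm7.L, −0.24 to 0.047 for mcm8.L, −0.28 to 0.017 for mcm9.L, −0.31 to 0.078 for mki67.S, −0.17 to 0.049 for orc1.L, −0.17 to 0.16 for orc2.S, −0.080 to 0.13 for orc3.S, −0.29 to 0.030 for orc4.L and −0.14 to 0.18 for orc5.L. The probe set annotated as ccna1 or ccnd2 alone has no homeolog ending. For mcm5.S, mcm3.L and ccne2.L the sign turned only with 1 array left out and its partner kept, in the fit without the block. A gene with 1 direction in 4 of 4 pairs keeps its sign when a pair is left out. The cause of the other turns was not tested.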

Other observations

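Among the 16 members that passed the F test over replicate numbers in limma, the mcm5.S probe set passed with an adjusted p of 0.000741, lowest in number 2, and cdc25a.S with 0.00106, highest in number 4. The widest ranges of replicate-number means after these were 1.18 for ccne2.S, 1.01 for mki67.S and 1.00 for ccne2.L. The origin recognition gene orc2.S had means of 7.86 and 7.77 in numbers 1 and 2 and of 7.06 and 7.0 in numbers 3 and 4 (adjusted p = 0.00409). The labels do not say what a replicate number stands for.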
